A study of Drosophila melanogaster with 30 samples.

Results

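The transcripts described here are those of 85 of 17807 annotated *Drosophila melanogaster* genes whose level was lower with ectopic *ovo-FLAG* than with the empty vector in both ovarian somatic cell lines that received the plasmids. They were chosen by their deposited values. A gene was taken when its mean over the 3 empty-vector libraries was at least 50 normalized counts and its mean over the 3 *ovo-FLAG* libraries was at most 0.75 of that mean, in wild-type OSCs and in Δ*l(3)mbt* OSCs alike. A normalized count is the number of reads counted for a gene divided by the size factor of its library. Of the 6177 genes at this level in both lines, 169 (2.74%) reached the ratio in OSCs and 345 (5.59%) in Δ*l(3)mbt* OSCs, 84 and 260 of which did so in that line alone. Since the ratios chose the genes, their values with *ovo-FLAG* and the vector are a description with no test. These genes were tested only in libraries the ratios did not use, and where 1 of them is counted among calls with *ovo-FLAG*, that follows from how it was chosen.

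Ovo, also known as Shavenbaby, is a zinc finger transcription factor with several isoforms. The germline isoform Ovo-B is an activator that female germ cells need, Ovo-A acts as a repressor, and the somatic isoform Shavenbaby shapes epidermal trichomes. L(3)mbt is a chromatin protein that keeps germline genes silent in somatic cells, and OSCs are cultured somatic follicle cells of the ovary.

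RNA was measured in 30 libraries of 9 conditions. The 12 transfected libraries were poly(A) RNA taken 48 h after nucleofection of OSCs or Δ*l(3)mbt* OSCs with a plasmid for FLAG-tagged *ovo-B* under the ubiquitous *act5C* promoter, or with the empty vector (3 each). The other libraries were total RNA depleted of ribosomal RNA, from fGS/OSS, an ovarian line in which germline and somatic cells grow together, from untransfected Δ*l(3)mbt* OSCs and from wild-type OSCs (4 each), and from ovarian cells sorted as *vas*-GFP-positive or *vas*-GFP-negative (3 each) out of w[*]; TI{TI}vas[AID:EGFP] flies, in which GFP is fused to the germline helicase Vasa. The Δ*l(3)mbt* OSCs are 1 line and the lines are female, and the labels give no age for the flies. The paper describes the replicates as distinct samples, without saying that those of a line came from separate cultures. The p-values thus measure the spread between these libraries, which may be technical.

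Counted reads per library spanned 2.27 to 5.20 M in OSCs with *ovo-FLAG* and 7.64 to 12.6 M with the vector, and in Δ*l(3)mbt* OSCs 5.82 to 8.61 M with *ovo-FLAG* and 1.63 to 17.0 M with the vector. They spanned 9.68 to 23.1 M in the untransfected lines, and 3.24 to 6.20 M in *vas*-GFP-positive and 8.39 to 13.1 M in *vas*-GFP-negative cells. Vector replicate 3 of Δ*l(3)mbt* OSCs was the shallow library. Without it the rule took 90 genes, 84 of them among the 85. Normalized counts of *ovo* were 699, 612 and 636 in OSCs with *ovo-FLAG* and 10.2, 7.12 and 11.2 with the vector. They were 2465, 2499 and 2231 in Δ*l(3)mbt* OSCs with *ovo-FLAG* and 1015, 969 and 871 with the vector. Plasmid reads are counted with those of the gene, and the vector libraries of Δ*l(3)mbt* OSCs already held *ovo* transcripts. The transcript of *l(3)mbt* itself was counted at like levels in both untransfected lines, 5555 to 6016 normalized counts in Δ*l(3)mbt* OSCs and 4612 to 6199.9 in wild-type OSCs, so it does not check that label.

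Most of the 85 genes were lowered by less than 2-fold. The ratio had a median of 0.682 in OSCs, with quartiles of 0.616 and 0.720 and a lowest value of 0.303, and a median of 0.620 in Δ*l(3)mbt* OSCs, with quartiles of 0.542 and 0.682 and a lowest value of 0.170. Over all 6177 genes at the level the medians were 0.972 and 0.986. A ratio of 0.5 or less was reached by 8 of the 85 in OSCs and by 18 in Δ*l(3)mbt* OSCs. The ratio was lower in Δ*l(3)mbt* OSCs for 64 of the 85 and lower in OSCs for 21. In 80 of them every *ovo-FLAG* library lay below every vector library in both lines, while *CG32599*, *ple* and *CG42554* overlapped in OSCs and *ltl* and *CG18171* in Δ*l(3)mbt* OSCs. Of all genes at the level, 24.1% lay lower without overlap in OSCs and 27.0% in Δ*l(3)mbt* OSCs. Since the rule used this contrast, nothing is read from the difference.

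**Figure D1:**
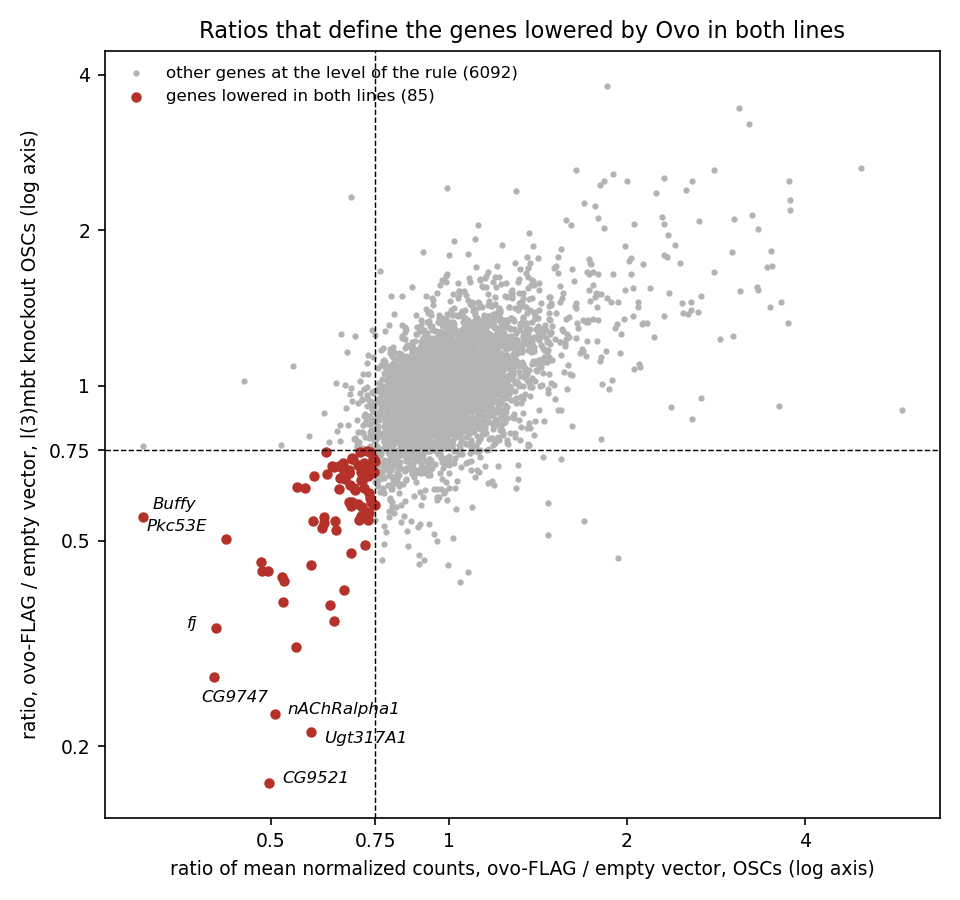
Each point is a gene at the level of the rule, placed by its ratio of *ovo-FLAG* to vector means in OSCs (x) and Δ*l(3)mbt* OSCs (y), both on log axes, with dashed lines at 0.75. The 85 genes fill the lower left corner by construction, *CG9521* lies lowest on the y axis at 0.170 and *Buffy* lowest on the x axis at 0.303.

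The limit of 0.75 fell within a continuous spread of ratios. The 3 just inside by their larger ratio were *tara* (0.747), *nrm* (0.749) and *hoe1* (0.7499), and the 3 just outside were *CG10407* (0.7501), *CG2003* (0.751) and *CG32512* (0.753). All 6 had that larger ratio in OSCs.

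Genes of the Fat, Wnt, BMP, EGFR and Slit pathways were among the 17 signalling genes of the 85. *fj* encodes Four-jointed, a Golgi kinase that modifies the cadherins Fat and Dachsous. It had 108, 70.01 and 95.1 normalized counts in OSCs with *ovo-FLAG*, against 226, 221 and 230.2 with the vector. In Δ*l(3)mbt* OSCs it had 30.8, 16.5 and 21.3 with *ovo-FLAG*, against 60.1, 58.2 and 83.3 with the vector. The groups were apart in both lines, with ratios of 0.403 in OSCs and 0.340 in Δ*l(3)mbt* OSCs. Among 18 tested genes of the Fat, Dachsous and Hippo list, *ds*, the Dachsous cadherin, was higher with *ovo-FLAG* by a log2 fold change of 2.67 in OSCs and 2.91 in Δ*l(3)mbt* OSCs (limma, adjusted p = 7.74e-06 and 1.24e-06), and *fj* was the 1 gene called lower. Over all genes tested with *ovo-FLAG*, 8.78% were called higher and 1.17% lower in OSCs, and 9.43% and 2.53% in Δ*l(3)mbt* OSCs.

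*Notum* encodes a secreted enzyme that removes the lipid from Wnt ligands. It had 30.05, 38.9 and 21.8 normalized counts in OSCs with *ovo-FLAG* and 64.3, 63.1 and 60.3 with the vector, and 39.1, 21.6 and 27.6 with *ovo-FLAG* against 71.5, 73.4 and 56.8 with the vector in Δ*l(3)mbt* OSCs. Of 20 tested Wnt pathway genes, the ligand gene *wg* was called higher in OSCs (log2 fold change 0.92, limma, adjusted p = 0.00213) and the receptor gene *fz2* in Δ*l(3)mbt* OSCs (0.66, adjusted p = 4.35e-06), and *Notum* was the 1 gene called lower in each line.

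*brk* encodes Brinker, the repressor of Dpp target genes. It had 72.8, 57.04 and 82.5 normalized counts in OSCs with *ovo-FLAG* and 132, 139 and 135 with the vector. In Δ*l(3)mbt* OSCs it had 113, 109 and 121 with *ovo-FLAG*, against 268, 254 and 284 with the vector, with no overlap in either line. The BMP ligand gene *dpp* was called higher in both, by 2.60 on the log2 scale in OSCs and 1.50 in Δ*l(3)mbt* OSCs (limma, adjusted p = 1.87e-09 and 3.94e-09). Of 16 tested BMP and TGF-β genes, 1 was called higher and 2 lower in OSCs, *brk* and the receptor gene *wit*, and 3 were called higher, *wit* among them, and 1 lower in Δ*l(3)mbt* OSCs.

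The EGF receptor gene and 1 of its ligand-processing proteases were both among the 85. *Egfr* had 1123, 1003 and 1114 normalized counts in OSCs with *ovo-FLAG*, against 1462, 1450.0 and 1489 with the vector, and 1024, 988 and 926 with *ovo-FLAG* against 1605, 1664 and 1590.2 with the vector in Δ*l(3)mbt* OSCs. *ru* encodes Roughoid, a rhomboid protease that cleaves EGFR ligands, and had 108, 75.2 and 96.2 with *ovo-FLAG* against 146, 142 and 152 with the vector in OSCs and 34.3, 41.2 and 30.8 with *ovo-FLAG* against 44.96, 46.2 and 60.6 with the vector in Δ*l(3)mbt* OSCs. Other genes of the pathway were called higher, among them *rho*, another rhomboid protease gene (log2 fold change 0.86 in OSCs and 1.01 in Δ*l(3)mbt* OSCs, limma, adjusted p = 2.78e-04 and 2.28e-06), and *aos*, which encodes the inhibitor Argos (1.65 and 0.73, adjusted p = 1.41e-04 and 0.00154). In all, 3 of 21 tested EGFR and ERK genes were called higher and 1 lower in each line.

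*sli*, which encodes the ligand of the Robo receptors, had 1580.0, 1473 and 1686 normalized counts in OSCs with *ovo-FLAG* and 2215, 2015 and 2205 with the vector, a ratio of 0.736, and a like ratio of 0.742 in Δ*l(3)mbt* OSCs (1483, 1362 and 1403 with *ovo-FLAG* against 1923, 2006 and 1795 with the vector). Its receptor gene *robo2* was called higher in both lines (log2 fold change 1.62 and 2.24, limma, adjusted p = 2.66e-06 and 6.16e-05). *NetA* and *NetB*, both Netrin genes, were the 2 of 17 tested axon guidance genes called lower in OSCs (-1.72 and -1.15, adjusted p = 8.34e-10 and 2.04e-07). Neither was called in Δ*l(3)mbt* OSCs, where they had log2 fold changes of -0.41 and 0.04 (adjusted p = 0.0814 and 0.907). Of the other signalling genes among the 85, *sev* encodes the receptor tyrosine kinase of the R7 photoreceptor (ratios 0.616 in OSCs and 0.557 in Δ*l(3)mbt* OSCs), *kek2* a transmembrane protein with leucine-rich repeats (0.652 in OSCs and 0.698 in Δ*l(3)mbt* OSCs), *nmo* the kinase Nemo (0.735 in OSCs and 0.674 in Δ*l(3)mbt* OSCs), and *Ac13E* an adenylate cyclase (0.687 in OSCs and 0.726 in Δ*l(3)mbt* OSCs).

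*Pkc53E*, which encodes a conventional protein kinase C, had 103, 57.04 and 93.9 normalized counts in OSCs with *ovo-FLAG*, against 198, 204 and 204 with the vector, and 152, 150.3 and 175 with *ovo-FLAG* against 335, 295 and 318 with the vector in Δ*l(3)mbt* OSCs. *nAChRalpha1*, a nicotinic acetylcholine receptor subunit gene, had 305, 311 and 285 with *ovo-FLAG* against 637, 567 and 572 with the vector in OSCs and 143, 134 and 152 with *ovo-FLAG* against 628, 607 and 625 with the vector in Δ*l(3)mbt* OSCs. Its ratio was 0.507 in OSCs and 0.231 in Δ*l(3)mbt* OSCs, with no overlap in either line. *Bili* had 50.6, 57.04 and 71.03 with *ovo-FLAG* against 116, 118 and 128 with the vector in OSCs and 80.4, 45.3 and 69.4 with *ovo-FLAG* against 127, 142 and 178 with the vector in Δ*l(3)mbt* OSCs.

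Besides *brk*, counted here with the signalling genes, 9 of the 85 were assigned to nuclear regulators. *nab*, which encodes a transcriptional cofactor, had 56.9, 67.4 and 61.9 normalized counts in OSCs with *ovo-FLAG* and 126, 113 and 117 with the vector, and 44.7, 40.2 and 24.4 with *ovo-FLAG* against 103, 93.1 and 90.9 with the vector in Δ*l(3)mbt* OSCs. *Saf6* encodes a subunit of the SAGA histone acetyltransferase complex, and had 656, 656 and 612 with *ovo-FLAG* against 1387, 1272 and 1347 with the vector in OSCs and 399.9, 387 and 394 with *ovo-FLAG* against 901, 822 and 875 with the vector in Δ*l(3)mbt* OSCs. Both genes had every *ovo-FLAG* library below every vector library. The remaining 7 were *mamo*, a BTB zinc finger gene (ratios 0.609 in OSCs and 0.529 in Δ*l(3)mbt* OSCs), the forkhead genes *bin* (0.682 in OSCs and 0.585 in Δ*l(3)mbt* OSCs) and *croc* (0.678 in OSCs and 0.686 in Δ*l(3)mbt* OSCs), *bowl*, a zinc finger gene of the odd-skipped family (0.713 in OSCs and 0.654 in Δ*l(3)mbt* OSCs), *Coop*, a corepressor gene of the Wnt effector Pangolin (0.718 in OSCs and 0.632 in Δ*l(3)mbt* OSCs), the histone demethylase gene *Kdm4B* (0.729 in OSCs and 0.668 in Δ*l(3)mbt* OSCs) and *tara* (0.747 in OSCs and 0.680 in Δ*l(3)mbt* OSCs).

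Metabolic and transport genes were the largest group with known names, 18 of the 85. *Ugt317A1*, a UDP-glycosyltransferase gene, had 99.6, 135 and 115 normalized counts in OSCs with *ovo-FLAG* and 201, 185 and 210.1 with the vector, and 60.1, 55.6 and 50.5 with *ovo-FLAG* against 258, 268 and 254 with the vector in Δ*l(3)mbt* OSCs. *FASN1*, the fatty acid synthase gene, had 18101, 17129 and 18121 with *ovo-FLAG* against 23274, 23654 and 25208 with the vector in OSCs and 13407, 11708 and 11529.8 with *ovo-FLAG* against 19980.5, 21229.8 and 20446 with the vector in Δ*l(3)mbt* OSCs. Other lipid genes among the 85 were *AcCoAS*, the acetyl-CoA synthetase gene (ratios 0.732 in OSCs and 0.568 in Δ*l(3)mbt* OSCs), *Inos*, which encodes the inositol phosphate synthase (0.677 in OSCs and 0.594 in Δ*l(3)mbt* OSCs), and *cert*, a ceramide transfer protein gene (0.639 in OSCs and 0.694 in Δ*l(3)mbt* OSCs). Of 16 tested lipid and sterol genes, a list that does not hold those 3, *FASN1* was the 1 called lower in Δ*l(3)mbt* OSCs, and 2 were called higher in each line. Genes that act on foreign or reactive compounds were *Ugt36D1*, another UDP-glycosyltransferase gene (0.689 in OSCs and 0.720 in Δ*l(3)mbt* OSCs), the glutathione transferase gene *GstT4* (0.628 in OSCs and 0.377 in Δ*l(3)mbt* OSCs), the aldehyde dehydrogenase gene *Aldh* (0.679 in OSCs and 0.642 in Δ*l(3)mbt* OSCs) and the catalase gene *Irc* (0.644 in OSCs and 0.526 in Δ*l(3)mbt* OSCs).

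*Buffy*, a Bcl-2 family gene, had the lowest ratio in OSCs, with 23.7, 20.7 and 19.5 normalized counts with *ovo-FLAG* and 76.8, 72.6 and 61.5 with the vector. In Δ*l(3)mbt* OSCs it had 46.1, 49.4 and 54.4 with *ovo-FLAG*, against 92.6, 86.2 and 90.9 with the vector. The cell death gene *rpr*, whose product opposes the apoptosis inhibitor Diap1, was called higher in both lines (log2 fold change 3.20 in OSCs and 1.40 in Δ*l(3)mbt* OSCs, limma, adjusted p = 2.65e-06 and 6.33e-04). Of 10 tested cell death genes, 2 were called higher in OSCs and 1 in Δ*l(3)mbt* OSCs, and *Buffy* was the 1 called lower in each. The medians of that list were 0.0971 in OSCs and -0.0127 in Δ*l(3)mbt* OSCs on the log2 scale. *SPARC*, which encodes a collagen-binding protein of the extracellular matrix, had 645, 604 and 621 with *ovo-FLAG* against 898, 868 and 930.3 with the vector in OSCs and 654, 681 and 621 with *ovo-FLAG* against 1035, 975 and 1098 with the vector in Δ*l(3)mbt* OSCs. The rest of the basement membrane list was mixed. Of 13 tested genes, 4 were called higher in OSCs and 6 in Δ*l(3)mbt* OSCs, with list medians of -0.19 in OSCs and 0.45 in Δ*l(3)mbt* OSCs on the log2 scale. The laminin gene *LanA* had log2 fold changes of -0.49 in OSCs and -0.40 in Δ*l(3)mbt* OSCs, short of the limit for a call. Among the genes called higher was *Tig*, which encodes the integrin ligand Tiggrin, by 2.97 and 1.48 on the log2 scale (adjusted p = 3.15e-12 and 1.71e-09). The 2 called lower in Δ*l(3)mbt* OSCs were *SPARC* and *Ppn*.

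Of the 85, 24 carry a CG number alone. *CG9521* had the lowest mean log2 ratio over both lines. It had 296, 288 and 233 normalized counts in OSCs with *ovo-FLAG* and 542, 477 and 623 with the vector. In Δ*l(3)mbt* OSCs it had 57.3, 44.3 and 29.97 with *ovo-FLAG*, against 273, 259 and 242 with the vector, the lowest ratio of the 85 in that line. *CG9747*, next in order, had 88.6, 93.3 and 77.9 with *ovo-FLAG* against 242, 183 and 223 with the vector in OSCs and 180.4, 184 and 152 with *ovo-FLAG* against 659, 634 and 606 with the vector in Δ*l(3)mbt* OSCs. Its level with the vector differed between the lines, whose values come from tables normalized apart. *CG1827* had 39.5, 25.9 and 43.5 with *ovo-FLAG* against 63.5, 66.9 and 67.6 with the vector in OSCs and 51.7, 25.7 and 29.2 with *ovo-FLAG* against 96.4, 102 and 144 with the vector in Δ*l(3)mbt* OSCs, with no overlap in either line.

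**Figure D2:**
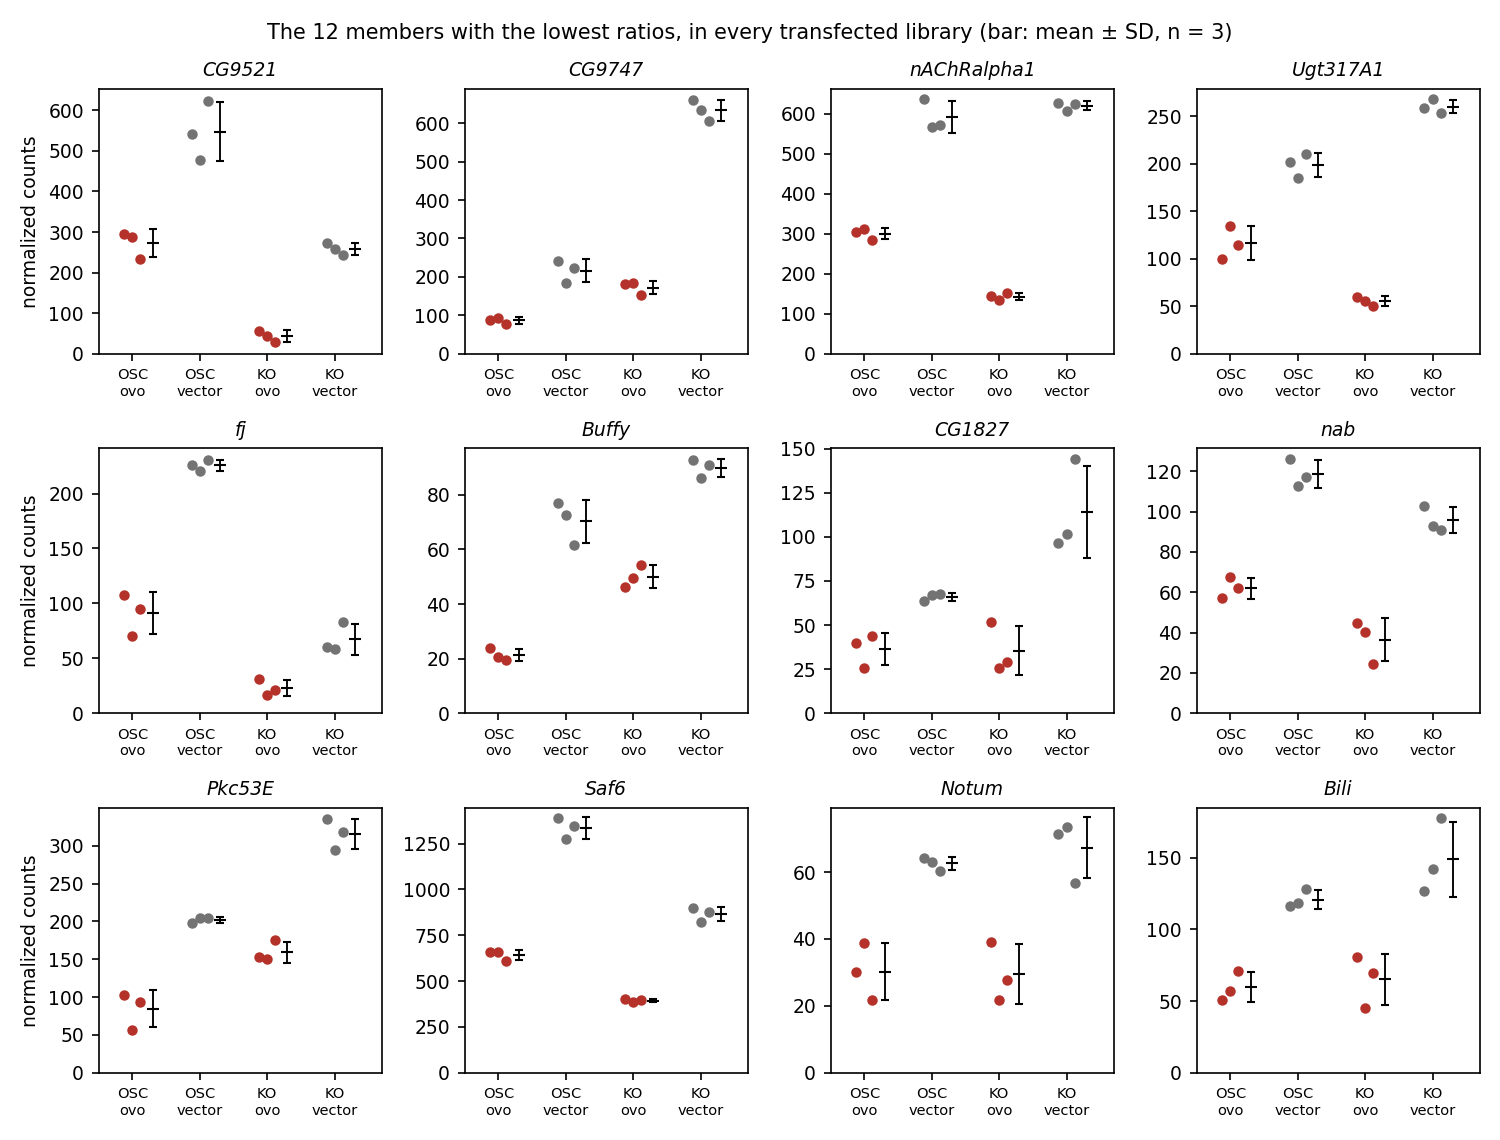
Each panel is 1 of the 12 genes with the lowest mean log2 ratio, with normalized counts on a y axis that starts at 0 and 1 point per library for *ovo-FLAG* (red) and vector (grey) in OSCs and Δ*l(3)mbt* OSCs (KO). Bars give mean ± SD (n = 3), and in every panel the red points of a line lie below its grey points.

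Other transcripts moved with the plasmid too. Germline markers summed to 642 to 672 normalized counts in OSCs with *ovo-FLAG* against 94.4 to 113 with the vector, with *zpg* at 0 with the vector, and in Δ*l(3)mbt* OSCs to 1982 to 2102 with *ovo-FLAG* against 1029 to 1170 with the vector, and 6 of 7 and 5 of 8 tested germline markers were called higher. Of tested heat shock genes, 10 of 15 were called higher in OSCs and 6 of 14 in Δ*l(3)mbt* OSCs, with a median log2 fold change of 1.59 and 0.55. Of the 4 tested muscle markers, 1 was called higher in OSCs and 2 in Δ*l(3)mbt* OSCs. In OSCs most of their sum was *Act57B*, an actin gene, with 4455, 4610 and 4596 normalized counts with *ovo-FLAG* and 5203, 5693 and 6315 with the vector. Without it the other 5 summed to 370 to 467 with *ovo-FLAG* against 322 to 333 with the vector in OSCs, and in Δ*l(3)mbt* OSCs to 157 to 169.9 with *ovo-FLAG* against 50.2 to 79.5 with the vector. The 6 ovarian somatic markers, which include none of the 85, summed to 20642 to 21020 with *ovo-FLAG* against 21328 to 21682 with the vector in OSCs, and in Δ*l(3)mbt* OSCs to 20649 to 21162 with *ovo-FLAG* against 23226 to 23551 with the vector. Without *piwi*, the sums in OSCs were 8965 to 9348 with *ovo-FLAG* against 9890 to 10656 with the vector. In Δ*l(3)mbt* OSCs they were 9376 to 9674 with *ovo-FLAG* against 11564 to 11885 with the vector. Of the 6 somatic markers, *tj* had 5191, 5012 and 4869 with *ovo-FLAG* against 6082, 5522 and 5593 with the vector in OSCs, and in Δ*l(3)mbt* OSCs 5124, 4949 and 4876 with *ovo-FLAG* against 7419, 7284 and 7345 with the vector, while *eya* was higher with *ovo-FLAG* in both lines and called so in OSCs. *fs(1)Yb* had 998, 949 and 965 with *ovo-FLAG* against 1327, 1262.5 and 1228 with the vector in OSCs. In Δ*l(3)mbt* OSCs it had 777, 763 and 774 with *ovo-FLAG* against 1035, 1022 and 1106 with the vector. Whether any of these has a part in the lower level of the 85 genes was not tested, and in bulk RNA fewer cells of a type and less RNA per cell cannot be told apart.

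The 85 genes lay on every large chromosome arm, with 14 on 2L, 16 on 2R, 20 on 3L, 18 on 3R and 17 on X. These are 16.5% to 23.5% per arm, where genes at the level had 17.7% to 24.2%. They spanned a median of 5.83 kb from start to end (quartiles 2.53 and 19.9 kb), against 3.03 kb (1.72 and 6.65 kb) for genes at the level. Of the 85, 80 code for protein and 5 are noncoding RNAs, which is 5.88% against 0.942% of genes at the level. The 5 are *lncRNA:CR32218*, *lncRNA:CR44885*, *lncRNA:CR40469*, *lncRNA:CR45723* and *asRNA:CR43470*.

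A few of the genes lie within 20 kb of each other in the BDGP6 assembly, and how often other genes at the level do so was not counted. *CG14855* (chromosome 3R, 14796305 to 14798474) and *CG14856* (chromosome 3R, 14798986 to 14801163) follow each other on the plus strand with 0.512 kb between them, and their ratios were 0.640 in OSCs and 0.350 in Δ*l(3)mbt* OSCs for *CG14855* and 0.709 in OSCs and 0.560 in Δ*l(3)mbt* OSCs for *CG14856*. *CG9747* (chromosome 3R, 30185423 to 30191252) and *CG9743* (chromosome 3R, 30196360 to 30202998) lie on the minus strand 5.11 kb apart, with the start of 1 other gene between them. *CG9743* had 129.7, 150.4 and 147 normalized counts in OSCs with *ovo-FLAG* against 277, 254 and 279 with the vector, and 145, 117 and 114 with *ovo-FLAG* against 308, 284 and 310.5 with the vector in Δ*l(3)mbt* OSCs. *CG8519* (chromosome 3L, 6704860 to 6709000, plus strand) and *ple*, the tyrosine hydroxylase gene (chromosome 3L, 6713356 to 6719525, minus strand), point at each other with 4.36 kb between them. *CG1722* (chromosome X, 21249976 to 21251148) lies inside *CG32521* (chromosome X, 21205310 to 21281171) on the same strand, so reads of one could be counted for the other.

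In the libraries that the ratios did not use, a larger share of the 85 genes than of all genes was called, in both directions, although no test of the list as a whole was made. Of 85 tested in fGS/OSS against wild-type OSCs, 40 were lower and 22 higher, where 18.3% of all 9533 genes tested were called lower and 18.0% higher, and 14.6% and 13.4% of those at the level of the rule. The 85 genes had 47.1% lower and 25.9% higher, and their median log2 fold change was -0.50, against -0.01 over all genes tested. Of 83 tested in sorted cells, with *vas*-GFP-positive set against *vas*-GFP-negative libraries, 22 were lower (26.5%) and 10 higher, where 7.99% of all 10481 genes tested were called lower and 7.04% higher, and 8.07% and 6.28% of those at the level. Their median log2 fold change there was -0.35, against -0.07 over all genes tested. In Δ*l(3)mbt* against wild-type OSCs, 18 of the 85 were higher (21.2%) and 11 lower (12.9%), where 11.3% of all 9592 genes tested were called higher and 7.91% lower, and 7.01% and 5.03% of those at the level. The median was 0.18, against 0.02 over all genes tested. Genes that reached the ratio in 1 line alone also had raised shares in places, and no difference between them and the 85 was tested. In fGS/OSS, 20.2% of the 84 lowered in OSCs alone were called higher and 23.8% lower, and 17.3% and 31.5% of the 260 lowered in Δ*l(3)mbt* OSCs alone. In *vas*-GFP-positive cells, 8.33% of the genes lowered in OSCs alone were called higher and 13.1% lower, and 8.17% and 17.9% of those lowered in Δ*l(3)mbt* OSCs alone. In untransfected Δ*l(3)mbt* OSCs, 4.76% of the genes lowered in OSCs alone were called higher and 15.5% lower, and 18.5% and 10.0% of those lowered in Δ*l(3)mbt* OSCs alone, the last pair being near the 21.2% and 12.9% of the 85. Groups did not overlap for 44 lower and 23 higher of the 85 genes in fGS/OSS (29.0% and 28.3% of all genes tested). The same held for 31 lower and 22 higher of 83 in sorted cells (28.0% and 21.9%). It held for 23 higher and 14 lower of 85 in Δ*l(3)mbt* OSCs (19.1% and 17.2%). By this measure the 85 had no raised share higher in fGS/OSS or lower in the Δ*l(3)mbt* line, unlike the calls. Their other shares without overlap were above those of all genes tested. Of genes at the level, 1628 of 6160 were higher without overlap in sorted cells, a share like that of the 22 of 83. For the remaining shares, genes at the level had 1996 of 6177 lower in fGS/OSS, 1827 of 6160 lower in sorted cells and 1205 of 6177 higher in Δ*l(3)mbt* OSCs. Those shares were below the ones of the 85, and no difference was tested. The comparisons with fGS/OSS and Δ*l(3)mbt* OSCs share their 4 wild-type OSC libraries.

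**Figure D3:**
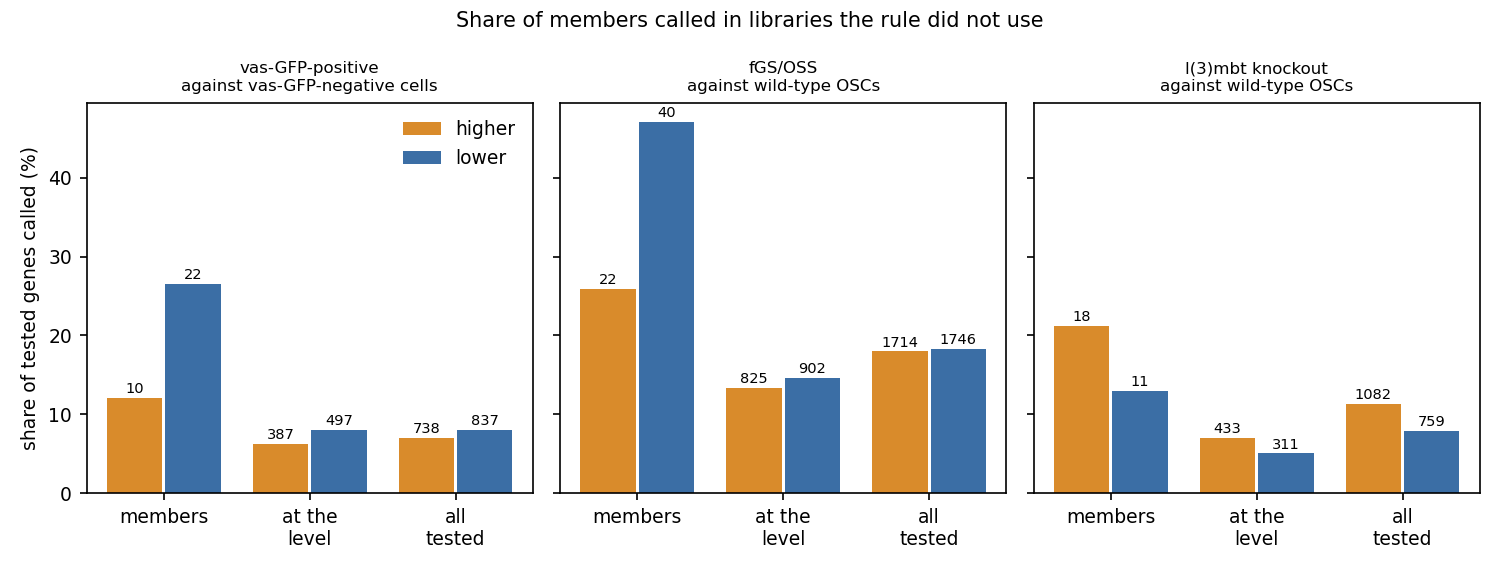
Bars give the share (%) of tested genes called higher (orange) and lower (blue) in each of 3 comparisons, for the 85 genes (members), for genes at the level of the rule and for all genes tested, with the number of genes above each bar. The blue bar of the 85 genes in fGS/OSS is at 47.1%, and in Δ*l(3)mbt* OSCs their orange bar, at 21.2%, is the taller.

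Single libraries bore on these counts. Wild-type OSC replicate 4 held the lowest of the 4 values for 43 of the 85 genes, and Δ*l(3)mbt* replicate 3 for 48. Without wild-type replicate 4, fGS/OSS had 42 genes lower and 22 higher, and Δ*l(3)mbt* OSCs had 13 lower and 16 higher. Without Δ*l(3)mbt* replicate 3, that line had 10 lower and 22 higher. In the sorted cells, 10 higher genes became 5, 5 and 3 without *vas*-GFP-negative replicate 1, 2 or 3, and 22 lower genes became 15, 16 and 15.

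In sorted cells, *ovo* was at 5676, 5738 and 4864 normalized counts in *vas*-GFP-positive and 66.6, 78.3 and 40.5 in *vas*-GFP-negative libraries. The 8 germline markers summed to 21182 to 22805 in *vas*-GFP-positive and 335 to 388 in *vas*-GFP-negative libraries, and the 6 ovarian somatic markers to 9697 to 10714 in *vas*-GFP-positive and 22603 to 24371 in *vas*-GFP-negative libraries. The germ line also uses *piwi*, which was the higher in *vas*-GFP-positive libraries (6536, 6163 and 6082 normalized counts, against 4043, 4236 and 3904 in *vas*-GFP-negative libraries), and without it the sums were 3161 to 4552 in *vas*-GFP-positive and 18698 to 20135 in *vas*-GFP-negative libraries. *tj*, the gene of the somatic factor Traffic jam, had 416, 710 and 446 in *vas*-GFP-positive libraries, against 7861, 8409 and 7506 in *vas*-GFP-negative libraries. The part of residual somatic RNA in the values was not tested. *CG14855* had 15.1, 5.58 and 1.80 normalized counts in *vas*-GFP-positive cells, against 203, 181 and 182 in *vas*-GFP-negative cells (log2 fold change -4.83 ± 0.68, SE, n = 3 each; limma, adjusted p = 0.00119). *CG9747* had 55.6, 26.04 and 57.7 in *vas*-GFP-positive cells, against 897, 889 and 936 in *vas*-GFP-negative cells (-4.34 ± 0.32, adjusted p = 3.71e-05). *Ugt317A1* had 17.4, 87.4 and 139 in *vas*-GFP-positive cells, against 1008, 1071 and 1027 in *vas*-GFP-negative cells (-4.09 ± 0.67, adjusted p = 0.00258), and *Pkc53E* had 15.1, 7.44 and 9.02 in *vas*-GFP-positive cells, against 120.1, 74.05 and 144 in *vas*-GFP-negative cells (-3.31 ± 0.51, adjusted p = 0.00184). These 4 genes had no library in common range between the sorted fractions.

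Adhesion, matrix and signalling genes were among the others lower in *vas*-GFP-positive cells, though not all one way. Of the 8 adhesion and cytoskeleton genes 3 were called lower and 3 higher, and of the 17 signalling genes 4 lower and 2 higher. Over all genes tested 7.99% were called lower and 7.04% higher. *Kank*, which encodes an ankyrin-repeat protein of cell adhesions, had 301, 351 and 307 normalized counts in *vas*-GFP-positive cells, against 2891, 2989 and 3008 in *vas*-GFP-negative cells (-3.21 ± 0.10, SE, n = 3 each; limma, adjusted p = 5.05e-07). *SPARC* had 372, 314 and 274 in *vas*-GFP-positive cells, against 2000.0, 1839 and 2176 in *vas*-GFP-negative cells (-2.65 ± 0.14, adjusted p = 7.42e-06). *Egfr* had 798, 1171 and 1162 in *vas*-GFP-positive cells, against 4747, 4898 and 4458 in *vas*-GFP-negative cells (-2.19 ± 0.15, adjusted p = 2.55e-05), and *brk* had 76.5, 91.1 and 148 in *vas*-GFP-positive cells, against 429, 409 and 401 in *vas*-GFP-negative cells (-2.02 ± 0.27, adjusted p = 8.80e-04). The fractions did not overlap for any of these 4 genes. *Buffy* had 20.9, 16.7 and 16.2 in *vas*-GFP-positive cells, against 106, 74.9 and 103 in *vas*-GFP-negative cells (-2.33 ± 0.41, adjusted p = 0.00348), and *hoe1* and *tara* had log2 fold changes of -1.41 and -2.08 (adjusted p = 0.00425 and 5.13e-05). Of the 9 nuclear regulator genes, of which *nab* was not tested, 4 were called lower. These were *tara*, *mamo* (log2 fold change -2.63), *bowl* (-2.41) and *Coop* (-2.29), with limma adjusted p = 1.45e-06, 4.82e-04 and 8.48e-05 for the last 3 in that order. Over all genes tested 7.99% were called lower, and 8.07% of those at the level, so this is a count in a small group.

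The genes higher in *vas*-GFP-positive cells were led by *Idgf6*, a chitinase-like imaginal disc growth factor gene, with 876, 856 and 655 normalized counts, against 82.7, 107 and 69.7 in *vas*-GFP-negative cells (3.20 ± 0.22, SE, n = 3 each; limma, adjusted p = 2.79e-05). *RhoGAP100F*, the Syd-1 gene of synapses, had 1371, 1669 and 1633 in *vas*-GFP-positive cells, against 218, 232 and 262 in *vas*-GFP-negative cells (2.71 ± 0.13, adjusted p = 5.61e-06). *CG1494* had 95.01, 49.3 and 134 in *vas*-GFP-positive cells, against 11.3, 11.1 and 9.42 in *vas*-GFP-negative cells (2.90 ± 0.54, adjusted p = 0.00449), *MFS3*, a major facilitator transporter gene, had 50.98, 59.5 and 75.8 in *vas*-GFP-positive cells, against 7.14, 8.51 and 8.48 in *vas*-GFP-negative cells (2.79 ± 0.52, adjusted p = 0.00458), and *CG13937* had 56.8, 66.95 and 90.2 in *vas*-GFP-positive cells, against 9.52, 19.6 and 13.2 in *vas*-GFP-negative cells (2.29 ± 0.50, adjusted p = 0.00994). None of the 5 overlapped between fractions. *fj*, *Notum*, *FASN1*, *sli* and *ru* were not called, with log2 fold changes of -0.78, -0.26, -0.07, -0.41 and 1.07.

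Leaving out 1 library ended several of the calls in sorted cells. *CG13937* was lost without any 1 of the 6 libraries (adjusted p = 0.0134 to 0.0482). Its call was also lost with a pseudocount of 0.5, no filter, quantile normalization, a replicate block (limma) and edgeR, with adjusted p = 0.01095 to 0.0299. With a replicate block, *Buffy*, *CG1494* and *MFS3* were lost too (limma, adjusted p = 0.0145, 0.0123 and 0.0208). Without *vas*-GFP-negative replicate 1, 2 or 3, the adjusted p was 0.0115, 0.0154 and 0.0133 for *Ugt317A1*, 0.0401, 0.0198 and 0.0367 for *Buffy*, 0.0210, 0.0209 and 0.0232 for *CG1494*, 0.0264, 0.0214 and 0.0234 for *MFS3*, 0.0115, 0.0114 and 0.0112 for *CG14855*, and 0.0186, 0.0206 and 0.0223 for *hoe1*. *Pkc53E* was lost without replicate 1 (0.0218) or 3 (0.0240), and *CG1494* also without *vas*-GFP-positive replicate 1 (0.0134). *nab* and *CG8519* were under the limit of 2 normalized counts and were not tested, and 18 of the 85 averaged under 20 normalized counts in *vas*-GFP-negative cells.

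**Figure D4:**
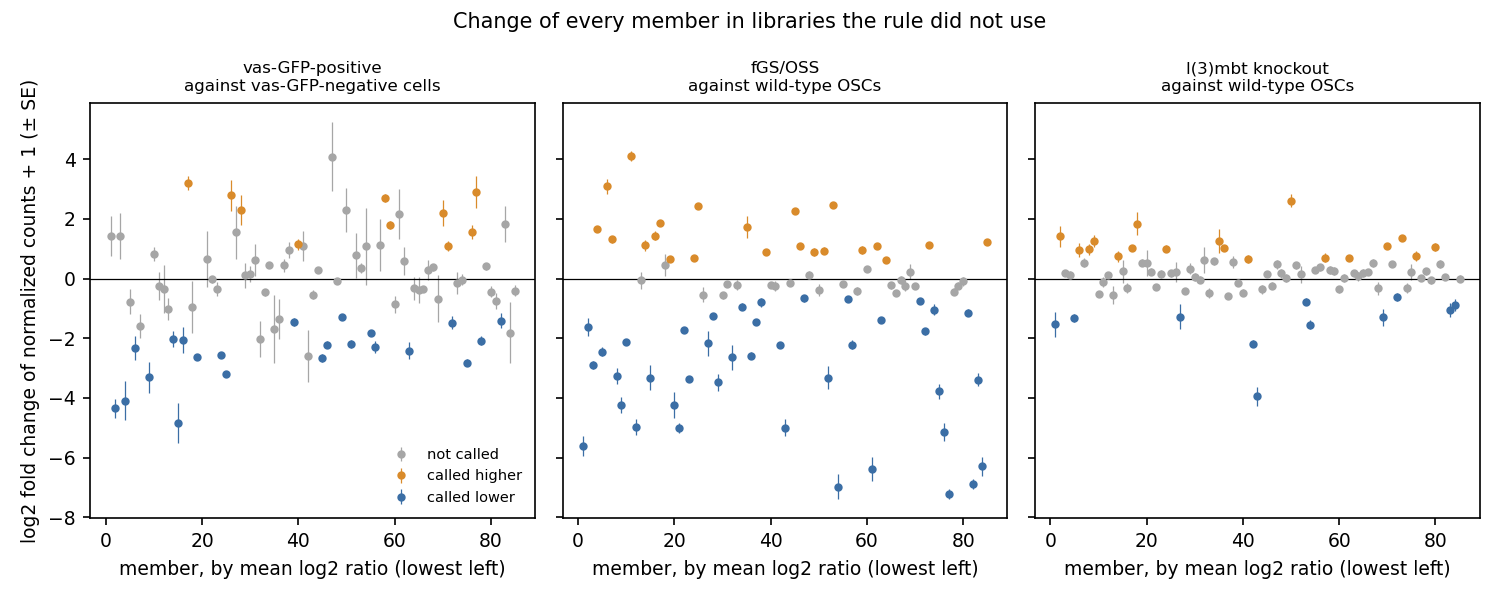
Each point is 1 of the 85 genes, in order of its mean log2 ratio with *ovo-FLAG* (x), and the y axis gives its log2 fold change ± SE (limma, log2 of normalized counts plus 1) in each of 3 comparisons, called higher (orange), lower (blue) or not called (grey). In fGS/OSS the values run from -7.21 to 4.11, with calls along the whole order of the genes.

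fGS/OSS cells had 3014, 3028, 2839 and 2882 normalized counts of *ovo*, Δ*l(3)mbt* OSCs 1957, 1753, 1613 and 2043 and wild-type OSCs 17.4, 20.05, 20.1 and 19.9. The 8 germline markers summed to 2994 to 3143 in fGS/OSS and 177 to 237 in wild-type OSCs. Most of the fGS/OSS sum was *bam* (2318, 2476, 2429 and 2416), while *nos*, *osk*, *otu* and *zpg* reached at most 6.90. *vas* had 556, 526, 559 and 478 in fGS/OSS, against 16.9, 14.1, 11.6 and 8.64 in wild-type OSCs. *orb* had 52.7, 43.7, 43.5 and 47.1 in fGS/OSS, against 14.9, 20.05, 25.3 and 21.6 in wild-type OSCs, and *AGO3* overlapped between the lines. The 6 ovarian somatic markers summed to 45550 to 49375.5 in fGS/OSS and 27230 to 32696 in wild-type OSCs. The share of germ cell RNA in fGS/OSS was not tested. The 85 genes spread over a wider range in fGS/OSS than in the other comparisons. *CG1494* had 28.7, 27.6, 16.8 and 17.8 normalized counts in fGS/OSS, against 3361, 3588, 3449 and 3258 in wild-type OSCs (log2 fold change -7.21 ± 0.16, SE, n = 4 each; limma, adjusted p = 1.10e-11). *ru* had 0, 3.45, 2.97 and 1.05 in fGS/OSS, against 306, 314, 327 and 281 in wild-type OSCs (-6.97 ± 0.41, adjusted p = 3.35e-08), which on this scale understates a change at so low a level. *hoe1*, a gene related to the mammalian melanosome transporter gene OCA2, had 24.9, 18.4, 16.8 and 31.4 in fGS/OSS, against 2499.7, 2713, 2562 and 3099.5 in wild-type OSCs (-6.87 ± 0.17, adjusted p = 2.39e-11). In these 3 genes every fGS/OSS library lay far below every wild-type library. All 5 noncoding RNAs were called lower, with log2 fold changes of -6.36 for *lncRNA:CR44885*, -6.29 for *lncRNA:CR45723*, -3.77 for *lncRNA:CR40469*, -0.79 for *lncRNA:CR32218* and -0.66 for *asRNA:CR43470* (limma, adjusted p = 6.51e-08, 6.13e-09, 1.64e-06, 7.47e-04 and 6.33e-04 in that order). Of the 58 noncoding RNAs at the level of the rule, 48.3% were called lower and 10.3% higher, and of all 560 tested 27.5% were lower. *lncRNA:CR44885* had 0.957, 2.30, 0 and 3.14 normalized counts in fGS/OSS, against 217, 158, 203 and 174 in wild-type OSCs. Of the 24 genes with a CG number alone, 15 were lower and 3 higher. The 17 signalling genes had 9 lower and 7 higher, the 18 metabolic and transport genes 5 lower and 4 higher, and the 9 nuclear regulators 4 lower and 2 higher. Over all genes tested 18.3% were called lower and 18.0% higher, and 14.6% and 13.4% of those at the level of the rule. Set beside these shares, the counts are of small groups, and no difference was tested. *CG9521* had 34.5, 44.9, 37.6 and 29.3 in fGS/OSS, against 2002, 2651, 2483 and 836 in wild-type OSCs (-5.62 ± 0.34, adjusted p = 6.89e-07), and *CG9747* had 154, 155, 140.4 and 149 in fGS/OSS, against 617, 628, 552 and 212 in wild-type OSCs (-1.62 ± 0.31, adjusted p = 0.00152).

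Of the other genes lowest with *ovo-FLAG*, *fj* (-2.45 ± 0.14), *nAChRalpha1* (-2.90 ± 0.13), *nab* (-3.27 ± 0.26), *Pkc53E* (-4.23 ± 0.26), *Saf6* (-2.12 ± 0.08) and *Bili* (-4.97 ± 0.27) were also lower in fGS/OSS (log2 fold change ± SE, limma, adjusted p = 3.18e-08, 3.47e-09, 5.26e-07, 5.60e-08, 1.07e-09 and 1.60e-08 in the same order). *fj* had 93.8, 80.5, 91.96 and 90.02 normalized counts in fGS/OSS, against 506, 461, 385 and 647 in wild-type OSCs. *Pkc53E* had 10.5, 11.5, 12.9 and 18.8 in fGS/OSS, against 292, 335, 316 and 157 in wild-type OSCs. Neither gene overlapped between the lines.

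*Notum* was the furthest raised of the genes higher in fGS/OSS. It had 3929, 3928, 3731 and 3979.5 normalized counts in fGS/OSS, against 212, 303, 255 and 153 in wild-type OSCs (log2 fold change 4.11 ± 0.17, SE, n = 4 each; limma, adjusted p = 8.22e-09). *Buffy* had 1012, 939, 1067 and 1052 in fGS/OSS, against 128, 125, 183 and 67.4 in wild-type OSCs (3.09 ± 0.25, adjusted p = 3.31e-06), *cert* had 2209.8, 2029, 2074 and 2214 in fGS/OSS, against 377, 367, 398 and 385 in wild-type OSCs (2.48 ± 0.06, adjusted p = 3.84e-11), and *Kank* had 15518, 15461, 15249 and 15024 in fGS/OSS, against 2247, 3194, 3292 and 2775 in wild-type OSCs (2.43 ± 0.11, adjusted p = 3.47e-09). *SPARC* had 8453, 8579, 8578 and 8590.2 in fGS/OSS, against 1597, 2033, 2088 and 1517 in wild-type OSCs (2.25 ± 0.10, adjusted p = 4.04e-09), and these 5 genes had no overlap between fGS/OSS and OSCs. *brk* (1.11), *Egfr* (0.94), *sli* (1.23), *Ugt317A1* (1.66) and *CG1827* (1.31) were called higher as well (adjusted p = 4.35e-04, 1.49e-05, 3.61e-07, 6.69e-08 and 1.14e-06 in that order). *FASN1* was not called (0.13, adjusted p = 0.425).

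Of the 85 genes, 12 were called lower in *vas*-GFP-positive cells and higher in fGS/OSS, 8 lower in both, 4 higher in the sorted cells and lower in fGS/OSS, and 2 higher in both. That is 14.5%, 9.64%, 4.82% and 2.41% of the 83 tested in both, where the shares over all 8933 genes tested in both were 2.77%, 1.81%, 1.72% and 1.48%, and 2.18%, 1.93%, 1.44% and 0.990% over those at the level of the rule. These 2 comparisons share no library, and the difference between the shares was not tested. The 12 were *Ugt317A1*, *Buffy*, *brk*, *GstT4*, *mamo*, *sev*, *Kank*, *fus*, *SPARC*, *CG3902*, *gukh* and *Egfr*. The 8 were *CG9747*, *Pkc53E*, *CG14855*, *Coop*, *bowl*, *Ugt36D1*, *lncRNA:CR40469* and *hoe1*. *CG13937*, *nmo*, *CG4393* and *CG1494* were the 4, and *Idgf6* and *rdgB* the 2.

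**Figure D5:**
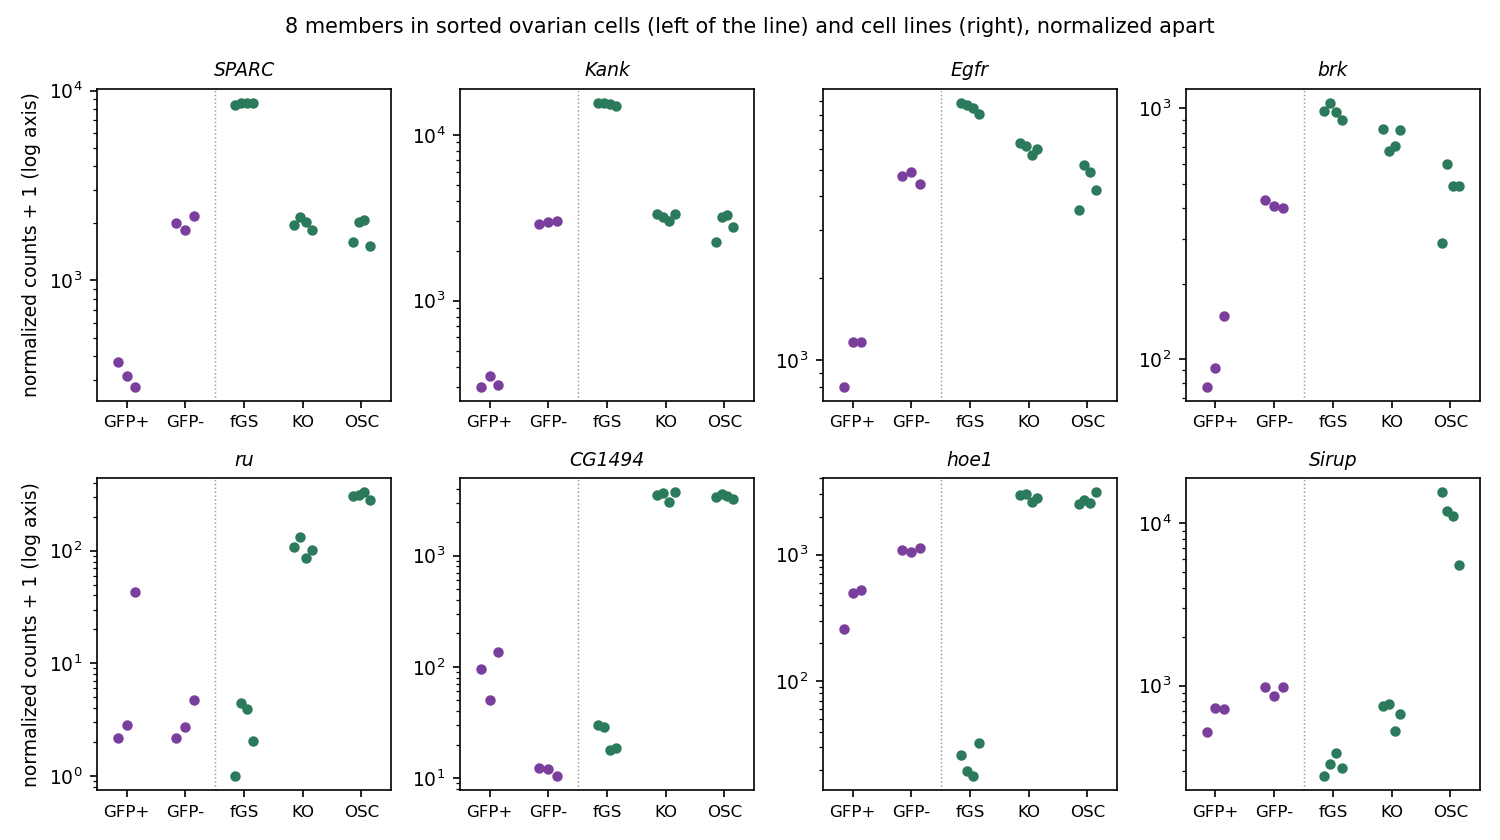
Normalized counts plus 1 (log axis) of 8 of the genes in every library of *vas*-GFP-positive and -negative cells (GFP+, GFP-), fGS/OSS (fGS), Δ*l(3)mbt* OSCs (KO) and wild-type OSCs, with the sorted cells and the lines normalized apart. *SPARC*, *Kank*, *Egfr* and *brk* are lower in GFP+ than in GFP- cells and higher in fGS than in OSCs, while *ru*, *CG1494*, *hoe1* and *Sirup* are lower in fGS than in OSCs.

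In untransfected Δ*l(3)mbt* OSCs set against wild-type OSCs, the log2 fold changes of the 85 genes ran from -3.95 to 2.61. *nrm*, which encodes the cell surface protein Neuromusculin, had 1776, 1811, 1536 and 1926 normalized counts in Δ*l(3)mbt* OSCs, against 355, 203, 229 and 414 in wild-type OSCs (log2 fold change 2.61 ± 0.21, SE, n = 4 each; limma, adjusted p = 1.27e-05). *CG43394* had 190.3, 252, 204 and 250.0 in Δ*l(3)mbt* OSCs, against 75.8, 94.3, 82.3 and 24.2 in wild-type OSCs (1.83 ± 0.38, adjusted p = 0.00469). *CG9747* had 1362, 1336, 989.7 and 1287 in Δ*l(3)mbt* OSCs, against 617, 628, 552 and 212 in wild-type OSCs (1.42 ± 0.35, adjusted p = 0.0166). Wild-type replicate 4 was the lowest wild-type library for both. *Ac13E* had 1456, 1455, 1399 and 1498 in Δ*l(3)mbt* OSCs, against 467, 656, 612 and 553 in wild-type OSCs (1.35 ± 0.10, adjusted p = 2.49e-07), and *Pkc53E* had 603, 588, 691 and 656 in Δ*l(3)mbt* OSCs, against 292, 335, 316 and 157 in wild-type OSCs (1.26 ± 0.21, adjusted p = 0.00106). In these 5 genes every Δ*l(3)mbt* library lay above every wild-type library. *Buffy* (0.95), *nab* (0.99), *Idgf6* (1.01) and *brk* (0.74) were called higher too (adjusted p = 0.00939, 0.00113, 3.66e-06 and 0.0121 in that order), the last not without wild-type replicate 1, where its log2 fold change was 0.53.

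*Sirup*, a mitochondrial complex II assembly factor gene, fell furthest of the lower genes. It had 743, 770.1, 523 and 667 normalized counts in Δ*l(3)mbt* OSCs, against 15483, 11966, 11085 and 5509 in wild-type OSCs (-3.95 ± 0.31, SE, n = 4 each; limma, adjusted p = 3.49e-05), and 277, 327, 383 and 312 in fGS/OSS. *Orct*, an organic cation transporter gene, had 246, 319, 277 and 225 in Δ*l(3)mbt* OSCs, against 1103, 1138, 1342 and 1247 in wild-type OSCs (-2.18 ± 0.11, adjusted p = 6.66e-09). For both, every Δ*l(3)mbt* library lay below every wild-type library. *ru* had 107, 132, 85.6 and 99.2 in Δ*l(3)mbt* OSCs, against 306, 314, 327 and 281 in wild-type OSCs (-1.54 ± 0.14, adjusted p = 1.90e-06), and *fj* had 190.3, 198, 216 and 185 in Δ*l(3)mbt* OSCs, against 506, 461, 385 and 647 in wild-type OSCs (-1.31 ± 0.14, adjusted p = 7.78e-06). *CG9521* had 814, 737, 382 and 676 in Δ*l(3)mbt* OSCs, against 2002, 2651, 2483 and 836 in wild-type OSCs (-1.54 ± 0.41, adjusted p = 0.0225), with the call lost without wild-type replicate 1, 2 or 3 (adjusted p = 0.0682, 0.0545 and 0.0531). *cert* was lower as well (log2 fold change -0.78, adjusted p = 3.80e-04), although it was higher in fGS/OSS. *Notum*, *Egfr*, *SPARC* and *FASN1* were not called, with log2 fold changes of -0.12, 0.44, 0.16 and 0.18, and neither was *sli* (adjusted p = 0.999).

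*Sirup* and *Orct* also stood lower in the vector libraries of Δ*l(3)mbt* OSCs than in those of OSCs. *Sirup* had 361, 328 and 297 normalized counts with *ovo-FLAG*, against 546, 487 and 432 with the vector, in Δ*l(3)mbt* OSCs and 3484, 4239 and 3514 with *ovo-FLAG* against 5618, 5805 and 6637 with the vector in OSCs, with ratios of 0.622 in OSCs and 0.673 in Δ*l(3)mbt* OSCs. *Orct* had 60.1, 63.8 and 52.05 with *ovo-FLAG* against 87.8, 93.4 and 117 with the vector in Δ*l(3)mbt* OSCs and 234, 254 and 207 with *ovo-FLAG* against 310.4, 325 and 357 with the vector in OSCs. The tables of the lines were normalized apart, so levels set across them are side by side only.

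*Ugt36D1* and *Idgf6* had opposite values in these comparisons, of which those of fGS/OSS and Δ*l(3)mbt* OSCs share their wild-type libraries. *Ugt36D1* had log2 fold changes of -1.48 in *vas*-GFP-positive cells, -1.76 in fGS/OSS and -0.62 in Δ*l(3)mbt* OSCs (limma, adjusted p = 0.00147, 7.35e-08 and 0.00363). *Idgf6* had 3.20 in *vas*-GFP-positive cells, 1.85 in fGS/OSS and 1.01 in Δ*l(3)mbt* OSCs (adjusted p = 2.79e-05, 6.06e-09 and 3.66e-06). Both were singled out after their values were seen. *FASN1* and *Inos*, both genes of lipid synthesis enzymes, the forkhead gene *bin* and the histone demethylase gene *Kdm4B* were called in none of these comparisons.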

How the data were processed

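Stranded RNA-seq reads were trimmed by the authors with cutadapt (1.18), aligned with STAR (2.7.3a) and assigned to genes, taking the reverse strand, with featureCounts from Subread (1.5.3). The signal that the authors deposited in 4 tables holds read counts scaled by size factors from DESeq2 (1.30.1), separately for each table. Deposited values were whole multiples of 1 step per library, so whole reads could be recovered (tolerance 0.01 reads). In fGS/OSS replicate 3 the step lay close to 1. The 5 deposited tables of fold changes, with their errors and p-values, hold the authors' own comparisons and were not used, and 0 columns of sample values were left out.

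The members, gene lists and role groups were chosen with earlier results of these data known. limma (3.58.1, R 4.3.3, trend and robust) was run on log2 of the value plus 1 after leaving out genes that averaged under 2 over the samples compared, p-values being adjusted over all genes tested by the method of Benjamini and Hochberg. The limits of a call were 1 for the log2 fold change and 0.01 for the adjusted p in sorted cells, 0.6 and 0.05 for the untransfected lines, and 0.6 and 0.1 with *ovo-FLAG*. The fold changes of low transcripts are understated on this scale. Alternatives were pseudocounts of 5 and 0.5, no filter, quantile normalization, edgeR (4.0.16) and DESeq2 (1.42.0) on the recovered reads, a replicate block, leaving out each library, and other limits of the rule. Positions and biotypes come from the Ensembl annotation of BDGP6, in which 17743 of 17807 genes were found by name or synonym. Genes named are the 12 with the lowest mean log2 ratio, those in the pathway lists, up to 5 called genes per direction and comparison with the largest change and no overlap, 3 genes on each side of the limit and neighbours. Others were named for their role after their values were seen. Marker sums without *piwi* or *Act57B* were added after the data were seen. Replicate pairs differed by 1.54 to 86.7 times the variance of counting. The highest values were in wild-type OSCs (6.90 to 86.7), the reference for both fGS/OSS (2.50 to 6.63) and Δ*l(3)mbt* OSCs (5.03 to 15.3). No sequence was read here.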

Additional observations from a re-analysis of the deposited data

Results flagged for a closer look

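In groups of 4 libraries, 108 sets of values of the 35 named genes and *ovo* were searched for a library far from the other 3, which chance alone gives in about 1 set of 20, and 6 were found. In fGS/OSS, *SPARC* was at 8453 normalized counts in 1 library and at 8578 to 8590 in the others, *CG13937* at 515 against 569 to 570.4, and *CG14855* at 45.5 against 17.3 to 22.0. In Δ*l(3)mbt* OSCs, *CG13937* was at 1180.4 normalized counts in replicate 3 against 950.1 to 983 in the others, and *lncRNA:CR45723* at 51.6 against 37.5 to 39.3. In wild-type OSCs, *ovo* was at 17.4 normalized counts in replicate 1 against 19.9 to 20.1. Each of these libraries differed by less than 3-fold from the others of its group.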

How the results depend on the processing

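The number of genes lowered in both lines was 45 at a ratio limit of 0.7 and 191 at 0.8, and 65 and 101 at level limits of 100 and 25. With TMM scaling it was 92, all 85 among them, and with quantile normalization 114, of which 73 were among the 85. Without 1 library it was 82 to 95. Same-numbered libraries did not deviate together (correlations of -0.0445 to 0.0768, and 6 of 17 libraries were closest to their own number), so numbers were not taken to pair samples. With a replicate block, the genes called higher in *vas*-GFP-positive cells were 6 of the 85 instead of 10, and 1419 genes in all were called in sorted cells instead of 1575. Leaving out 1 library gave 3 to 9 of the 85 higher there, 15 to 24 lower and 974 to 1784 of all genes called. For fGS/OSS it gave 21 to 22 higher and 40 to 42 lower, and for Δ*l(3)mbt* OSCs 15 to 22 and 8 to 13. Of 173 counts under an alternative, 164 were within 1.5 times the count reported. Of 61 calls of named genes, 51 were kept under every alternative run, and over 883 values 39 lost the call and 0 changed direction. DESeq2 and edgeR on recovered reads gave 753 and 729 genes called with *ovo-FLAG* in OSCs, against 898 with limma. Depth limits low transcripts, such as *ru* in fGS/OSS and sorted cells.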
